A study of Mus musculus with 98 samples.

Results

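The interferon-stimulated genes described here are a list of 46 mouse genes named for their known induction by interferons, followed through the stroma of the thymus, the nonlymphoid scaffold in which T cells mature. The list was taken by gene name and not by any measured value. All 46 genes were among the 39179 Ensembl identifiers of the bulk RNA sequencing tables, and 45 of the 46 were present in both single-cell tables, where Mx2 was absent from the 22231 and the 20760 genes listed.

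Interferons act through cell surface receptors. Type I interferons bind IFNAR1 and IFNAR2, type III (lambda) interferons bind IFNLR1 and IL10RB and act mainly on epithelia, and both lead to a complex containing STAT2 and IRF9 that binds the interferon-stimulated response element in gene promoters. Interferon-gamma acts through IFNGR1 and IFNGR2, and IRF1 is one of its early targets. The induced genes encode sensors of foreign nucleic acids, enzymes and binding proteins that block viral RNA, ubiquitin-like modifiers and membrane proteins. Medullary thymic epithelial cells are known to make interferons without infection.

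Measurements of 3 kinds were available, all from mouse thymus. Single-cell libraries of Ter119-CD45-EpCAM- cells, the nonepithelial thymic stroma (NETS), came from wild-type embryos and mice at E12.5 and E13.5 (days of embryonic life) with 1 library each and at E16.5, at birth (P0) and at 4 weeks (W4) with 2 libraries each, 36208 cells that the study had assigned to 19 subtypes. Single-cell libraries of Ter119-CD45- cells, a gate that keeps thymic epithelial cells (TECs), were sorted and then fixed with RNAprotect, and came from 3 newborn Tbx1+/-Crkl+/- mice, heterozygous for 2 genes of the chromosomal segment deleted in DiGeorge syndrome, and 3 wild-type newborns, 21451 cells with 29 labels. Bulk libraries came from wild-type mice, 6 for each of 14 groups: endothelium (CD31+), perivascular cells (Ly51+gp38-), capsular fibroblasts (gp38+CD26+), fibroblasts enriched for medullary subtypes but also holding capsular CapFb1 cells per the study (gp38+CD26-, called medullary below), cortical TECs (cTECs) and medullary TECs (mTECs) at P0 and at 4 weeks, and mTECs split by sort into mTEClo and mTEChi at 4 weeks. The youngest thymi were pooled from several embryos, so the single E12.5 and E13.5 libraries hold no information on the spread between animals.

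**Figure D1:**
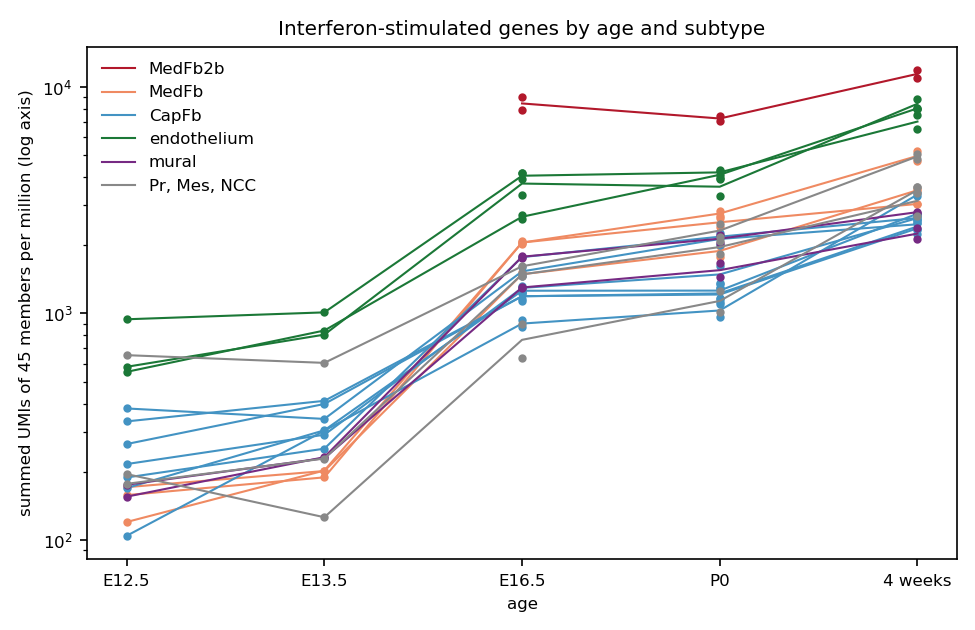
Summed expression of 45 interferon-stimulated genes in counts per 1000000 (CPM, log axis) by age in the 19 NETS subtypes, each point 1 library and each line joining the means of 1 subtype. MedFb2b (red) lies above every other subtype from E16.5 on, between 7076 and 11796 CPM, and the endothelial subtypes (green) come next.

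The promoter windows of the listed genes held the core of the response element more often than those of other genes, and the sequences of 5 genes that recur in the results show where it lay. In the RefSeq promoter windows of GRCm38.p6, which run from 250 bases before to 50 bases after each gene's start site, 34 of the 46 genes had an entry. The motif, 2 copies of GAAA parted by any 2 bases and searched on both strands, was present in 17 of those 34 genes (50%) and in 1062 of 26991 other genes (3.93%). The longer form, in which a C follows the second copy and which contains the first motif, was present in 14 of the 34 (41.2%) and in 241 of 26991 other genes (0.893%). Each line gives 50 bases read 5′ to 3′ on the strand of the gene, and the capitals mark 1 match, which reads as 2 copies of TTTC where the motif lies on the opposite strand. Isg15 had 3 overlapping matches in its window, and Ifit1 and Ifit3 had 2 each.
Isg15, chr4:156200861-156200910: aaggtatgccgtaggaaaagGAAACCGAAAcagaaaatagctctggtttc
Ifit1, chr19:34640765-34640814: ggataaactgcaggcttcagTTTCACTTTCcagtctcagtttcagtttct
Ifit3, chr19:34583353-34583402: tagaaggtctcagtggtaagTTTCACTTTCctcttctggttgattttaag
Gbp2, chr3:142620584-142620633: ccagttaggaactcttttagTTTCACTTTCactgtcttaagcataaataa
Rsad2, chr12:26456543-26456592: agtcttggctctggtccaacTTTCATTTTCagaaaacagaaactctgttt

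Isg15 and Rsad2 lie on the minus strand of the chromosome and the other 3 on the plus strand. The match shown lay 72 to 63 bases before the start site in Isg15 and 59 to 50 bases before it in Gbp2, a guanylate-binding GTPase. Ifit3 and its near copy Ifit3b had the same 50 bases around the match, at chr19:34607749-34607798 for Ifit3b, and reads of the 2 genes may not be fully separable. The other genes with a match were Stat2, Ifit3b, Ifih1, Ddx58, Oas1a, Oas3, Bst2, Trim30a, Eif2ak2, Gbp3, Gbp7 and Slfn5. The windows of Irf1, Irf7 and Irf9 did not contain these letters.

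Bulk depth had group medians of 10240417 to 13230314 counts assigned to genes, except that replicate 2 of the 4-week gp38+CD26+ group held 25702 counts. That library also stood apart in content, with summed fibroblast markers (Pdgfra, Col1a1, Dcn) of 1829 CPM against 40311 to 47072 in the other 5, and summed epithelial markers of 7276 CPM against 48.1 to 123, so the main calls resting on it are given with and without it. Median depth per cell was 10005 to 14031 unique molecules (UMIs) in the age series and 2391 to 4686 in the newborn libraries, and any 2 libraries shared at most 14 cell barcodes. The 2 E16.5 libraries differed from each other less than any other pair of the age series. Their mean chi-square per gene was 3.03, where counting noise alone gives about 1, against 67.4 for the P0 pair and 23.8 for the 4-week pair. Per the study the cells of each of these ages came from 2 thymi, and how the thymi were divided between the libraries is not given in the sources used here.

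Across all NETS cells summed per library, expression of the list was low in the early rudiment and high from E16.5 onwards. The summed level of the members, in which abundant members weigh most, was 243 CPM at E12.5, 340 CPM at E13.5, 1839 and 1850 CPM at E16.5, 1958 and 2185 CPM at P0 and 3826 and 3628 CPM at 4 weeks. In 42 of 44 members both E16.5 libraries were more than 2-fold above the single E13.5 library, a difference seen for 9.93% of all genes, and no member was more than 2-fold lower, against 13% of all genes. This step has no test, since E13.5 is 1 library. Isg15, the ubiquitin-like modifier whose conjugation marks an interferon response, was at 4.52, 9.26, 98, 97.8, 77.7, 90.5, 87.3 and 91.3 CPM in the 8 libraries in order of age. It reached its plateau by E16.5 and no later library exceeded that level. Ifit3 was at 0, 0.32, 15.8, 15.9, 15.9, 22.0, 46.8 and 51.2 CPM, with its highest values at 4 weeks.

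The early increase was also found inside single subtypes. Both E16.5 libraries were more than 2-fold above E13.5 for 34 of 35 measurable members in MedFb1a medullary fibroblasts (9.8% of all genes), 42 of 43 in proliferating cells (10.3%), 38 of 41 in pericytes (11.8%) and 31 of 41 in capillary endothelium, EnC (6.42%). The smallest shares were in CapFb3 capsular fibroblasts with 17 of 25 (6.9%) and CapFb4 with 20 of 29 (11.1%). At E13.5 the summed level was already 1009 CPM in venous and lymphatic endothelium (EnVL), 840 CPM in EnC and 805 CPM in arterial endothelium (EnA), against 203 CPM in MedFb2a and 189 CPM in MedFb1a. The median of the summed thymocyte markers over the subtypes was 2.67 CPM at E13.5 and 17.0 CPM at E16.5, and their part in the increase was not tested.

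Between birth and 4 weeks, 36 of the 44 members tested rose over all NETS cells and 1 fell, where 26% of all genes rose and 25.7% fell (edgeR quasi-likelihood test, adjusted p under 0.05). The median difference of the members was 0.82 on the log2 scale against 0.00 over all genes. Without the MedFb2b subtype, in which the members were highest, the counts were 35 and 1 (26% and 25.7% of all genes). With the E16.5 libraries left out of the fit, an analysis added after the data were seen, they were 34 and 1. The shares of all genes called in that fit are not given here. The endothelial markers Pecam1, Cdh5 and Kdr rose as well, by 1.62, 1.32 and 1.21, as did the thymocyte markers Dntt, by 3.52, and Ptprc, by 1.58. The part of these cells in the summed values was not tested, and a change in the mix of cells cannot be told apart from one within cells in such sums.

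By role, all 4 OAS genes and all 4 IFIT genes tested rose, as did 5 of 5 membrane and secreted members, 4 of 5 nucleic acid sensors, 3 of 4 GTPases, 6 of 8 genes of the ISG15, ubiquitin and ADP-ribosylation group and 9 of 10 other effectors. Ly6e, a lipid-anchored surface protein at chr15:74955051-74959905, was at 229 and 223 CPM at P0 and at 871 and 812 CPM at 4 weeks, a log2 difference of 1.88 ± 0.06 (SE, adjusted p = 4.92e-05). Its 2 libraries at 4 weeks lay above every earlier one. Trim30a, a tripartite motif regulator of inflammatory signalling, went from 10.5 and 10.1 CPM to 52.1 and 46.8 CPM (2.24 ± 0.07, adjusted p = 4.44e-05). Oas1a, which makes the oligoadenylates that activate RNase L, went from 0.99 and 1.08 CPM to 3.74 and 3.87 CPM (1.86 ± 0.22, adjusted p = 0.00124). The Oas1 genes lie in a cluster of close copies, so the share of reads that belongs to Oas1a is uncertain. Ifi27l2a, a small hydrophobic membrane protein, went from 163.1 and 123 CPM to 417.5 and 416.9 CPM (1.53 ± 0.13, adjusted p = 0.000415), and the secreted glycoprotein Lgals3bp from 56.9 and 72.3 CPM to 171 and 186 CPM (1.45 ± 0.13, adjusted p = 0.000528).

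Smaller increases were found for Ifit3 (1.35 ± 0.16, adjusted p = 0.00138), Gbp2 (0.96 ± 0.07, adjusted p = 0.00023), the transcription factor Irf7 (0.84 ± 0.15, adjusted p = 0.00579) and Bst2 (0.63 ± 0.09, adjusted p = 0.00246), the protein tetherin that holds budding virus at the cell surface. Isg15 did not pass the test (0.07 ± 0.09, adjusted p = 0.54). The same held for Irf9 (0.19, adjusted p = 0.0981) and Stat2 (0.25, adjusted p = 0.218), both subunits of the complex that binds the response element, and for the RNA-activated kinase Eif2ak2 (0.10, adjusted p = 0.222) and Rtp4 (0.21, adjusted p = 0.321).

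Irf1 was the 1 member that fell. This transcription factor, at chr11:53770014-53778374 on the plus strand, was at 27.7, 38.2, 242, 255, 353, 411, 83.1 and 87.3 CPM in the 8 libraries in order of age. It was highest at birth and fell by 2.18 ± 0.10 on the log2 scale to 4 weeks (adjusted p = 8.11e-05), while 36 other members rose.

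**Figure D2:**
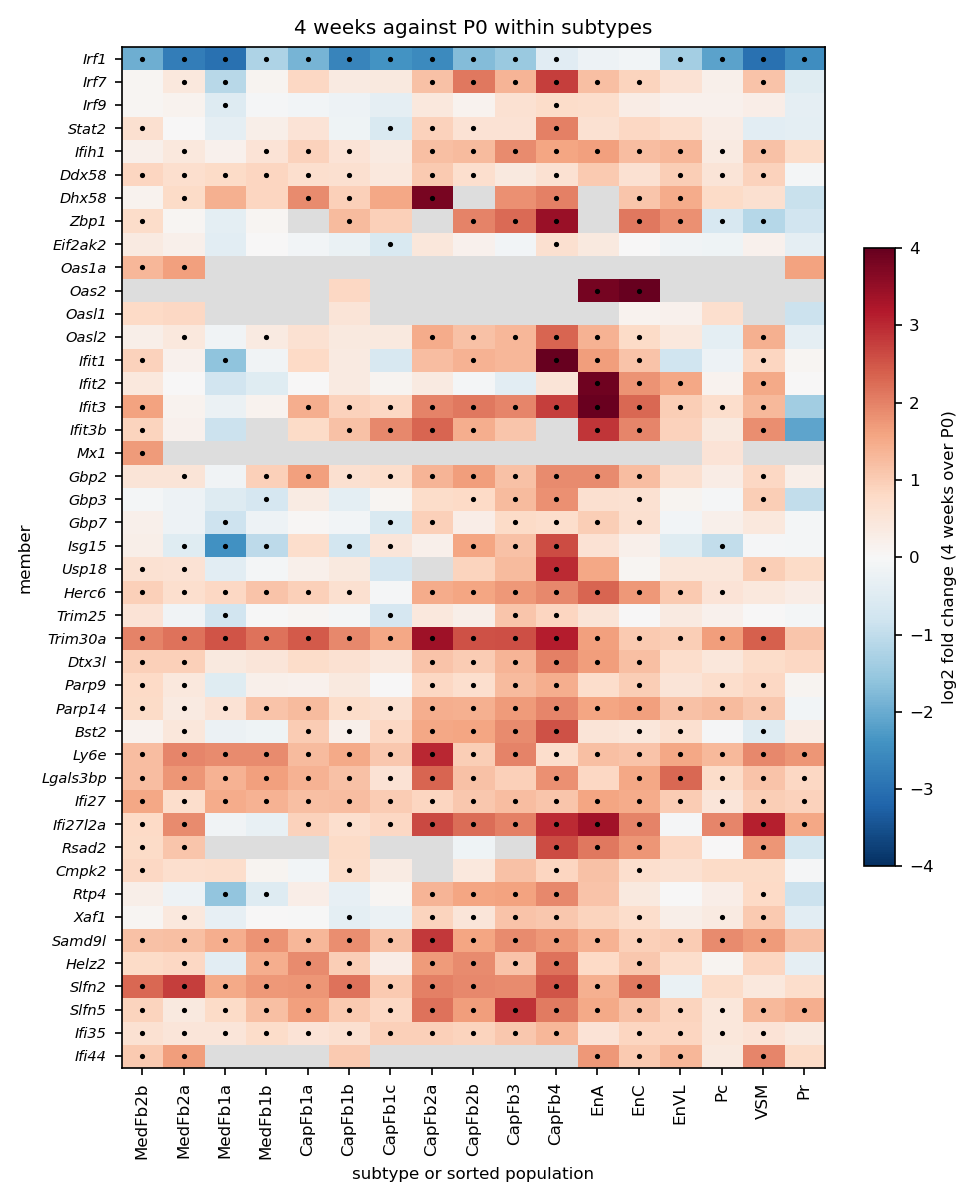
Log2 difference of each interferon-stimulated gene between 4 weeks and P0 in 17 NETS subtypes, as a heat map in which colours end at 4 in either direction, dots mark an adjusted p under 0.05 and grey marks gene and subtype pairs that were not tested. Most dots lie on the side of higher expression at 4 weeks, and the row of Irf1 is lower in 15 of the 17 subtypes.

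Within 17 subtypes that had at least 20 cells in every library from E16.5 on, 364 of 672 pairs of member and subtype rose between P0 and 4 weeks and 36 fell, where 15.3% and 15% of all pairs of gene and subtype did. The pairs of 1 gene are not independent, since all subtypes come from the same libraries. Thymocyte markers within the subtypes were at higher levels at 4 weeks, with a lowest, median and highest of 57.4, 91.8 and 613 CPM against 21.6, 32.7 and 70.7 CPM at P0. Medians over the subtypes also rose for dendritic cell (4.02 to 10.5 CPM), endothelial (7.81 to 25.8 CPM) and epithelial markers (6.25 to 15.1 CPM). The median of the macrophage markers fell (6.35 to 3.02 CPM). The part of these lists in the result was not tested. Without the E16.5 libraries in the fit the counts were 333 and 33 of 660 (14.2% and 13.1% of all pairs). Ly6e rose in 17 of 17 subtypes, by 0.71 in CapFb4 to 3.01 in CapFb2a. Ifi27 and Slfn5 also rose in 17, and Trim30a, Parp14, an ADP-ribosyltransferase, and Samd9l each in 16. Ifit3 rose in 13, the RNA sensor Ifih1 (MDA5) in 13, Gbp2 in 12 and Bst2 in 10, with Bst2 falling in vascular smooth muscle (VSM). Oasl1 was tested in 7 of the subtypes and passed in none of them in either direction by edgeR, with 1, MedFb2b, at an unadjusted p under 0.05 (0.80 ± 0.29, adjusted p = 0.053).

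Irf1 fell in 15 of the 17 subtypes, with a median difference of -1.96 over the 17. In VSM it was at 308 and 365 CPM at P0 and at 41.1 and 46.6 CPM at 4 weeks (-2.995 ± 0.13, adjusted p = 1.93e-05). In MedFb1a it fell by 2.98 ± 0.11. The 2 subtypes in which it did not pass the test were both endothelial. In EnC it was at 199 and 202 CPM at P0 and at 207 and 174 CPM at 4 weeks (-0.12 ± 0.11, adjusted p = 0.479), and in EnA at 141 and 193 CPM and at 183.8 and 129 CPM (-0.19 ± 0.28, adjusted p = 0.739). The P0 and 4-week values overlapped in both. The third endothelial subtype, EnVL, was among the 15 in which Irf1 fell.

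CapFb4, a capsular fibroblast subtype, had the largest number of members that rose, 36 of 38 with 1 that fell, where 17.4% and 17% of all genes did, and a median difference of 1.93. Its summed level went from 1097 and 961 CPM to 3387 and 3289 CPM. Ifit1, which binds viral RNA by its cap, was at 1.19 and 2.49 CPM at P0 and at 44.1 and 34.2 CPM at 4 weeks (4.49 ± 0.36, adjusted p = 1.8e-09). Isg15 was at 15.1 and 6.46 CPM and at 71.0 and 61.2 CPM (2.62 ± 0.24, adjusted p = 1.3e-08), and Irf7 at 9.14 and 6.46 CPM and at 51.4 and 50.3 CPM (2.75 ± 0.23, adjusted p = 3.37e-09). The Z-nucleic acid sensor Zbp1 rose by 3.44 ± 0.43 (adjusted p = 1.72e-06). In all 4 genes the 2 ages did not overlap. Irf1 was the member that fell, by 0.45 ± 0.14 (adjusted p = 0.0142).

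MedFb1a, a medullary fibroblast subtype, had the lowest median and the most members that fell, with 11 members that rose and 8 that fell of 38, where 16.8% and 16.3% of all genes did, and a median difference of -0.22. Its summed level was 2635 and 2405 CPM at P0 and 3045 and 3029 CPM at 4 weeks. Isg15 was at 98.2 and 74.1 CPM at P0 and at 17.5 and 16.1 CPM at 4 weeks (-2.42 ± 0.22, adjusted p = 1.29e-07), the reverse of its course in CapFb4. Ifit1 (-1.60 ± 0.41, adjusted p = 0.00571), Rtp4 (-1.57 ± 0.23, adjusted p = 3.72e-05) and Irf7 (-1.10 ± 0.27, adjusted p = 0.00435) fell in MedFb1a too, while Ly6e (1.88 ± 0.15) and Trim30a (2.52 ± 0.35) rose there. The difference between these subtypes was not itself tested. Isg15 rose in 4 subtypes and fell in 5, CapFb1b, MedFb1a, MedFb1b, MedFb2a and pericytes.

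In endothelium, 32 of 42 members rose and 0 fell in EnC (11.4% and 11.3% of all genes), and 22 of 39 rose and 0 fell in EnA (5.03% and 5.75%) by edgeR. At an unadjusted p under 0.05, 0 members were lower in either subtype, and DESeq2 called 29 and 11 higher and 0 lower. Over all subtypes tested DESeq2 called 9.88% of all pairs of gene and subtype higher and 9.53% lower. In EnVL 17 of 41 members rose and 1, Irf1, fell (7.63% and 8.67%). In EnC, Ifit3 went from 11.7 and 38.7 CPM to 128 and 134.999 CPM (2.29 ± 0.36, adjusted p = 0.00265). In EnA it went from 14.5 and 3.27 CPM to 112.8 and 182.03 CPM (3.94 ± 0.52, adjusted p = 0.000442). Proliferating cells had the fewest members that rose, 5 of 42 with 1 that fell, where 5.52% and 6.42% of all genes did.

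From E16.5 to P0 the members moved less. Of the 672 pairs 105 rose and 29 fell, against 7.53% and 6.68% of all pairs. These tests rest on the closely matched E16.5 pair, whose spread may be technical only. Without E16.5 replicate 1 the counts were 45 and 6 of 686 (2.57% and 1.97% of all pairs), and without E16.5 replicate 2 they were 51 and 12 of 686 (2.84% and 2.35%). In EnC 23 of 42 members rose and 0 fell (11% and 13.6% of all genes) by edgeR, with 0 lower at an unadjusted p under 0.05 and 19 higher and 0 lower by DESeq2. Over all subtypes tested DESeq2 called 4.2% of all pairs higher and 3.39% lower. Ifit1 in EnC was at 10.7 and 9.51 CPM at E16.5 and at 35.2 and 60.1 CPM at P0 (2.14 ± 0.25, adjusted p = 0.00122). In MedFb2b 1 of 43 members rose and 13 fell, where 2.81% and 2.89% of all genes did. There Isg15 was at 1176 and 958 CPM at E16.5 and at 680 and 653 CPM at P0 (-0.80 ± 0.15, adjusted p = 0.00273), and Usp18, the protease that removes ISG15 from proteins, fell by 0.85 ± 0.16 (adjusted p = 0.0034). Irf1 rose in 10 of the 17 subtypes over this interval, before its decrease after birth.

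**Figure D3:**
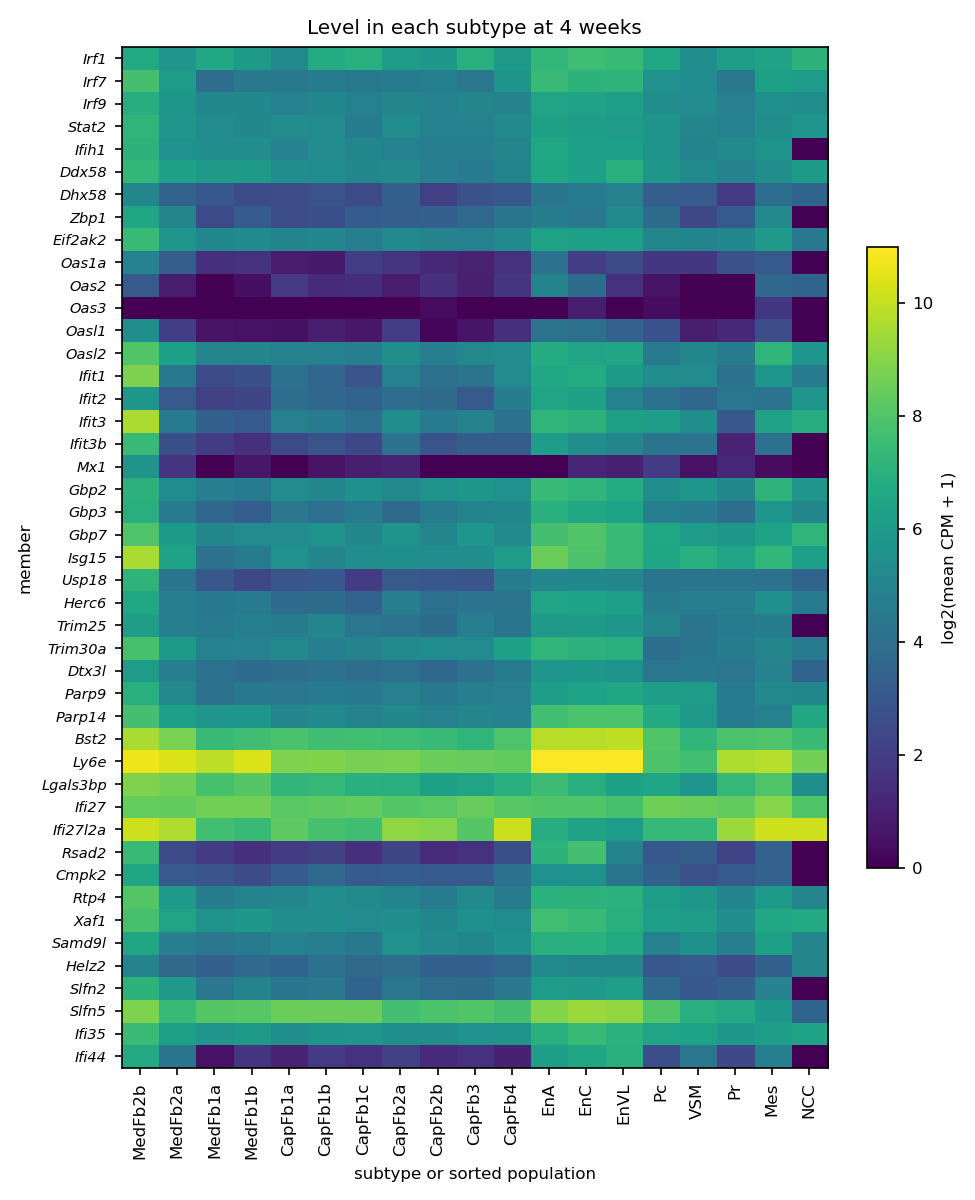
Level of each interferon-stimulated gene in the 19 NETS subtypes at 4 weeks, as log2 of the mean CPM of 2 libraries plus 1, with colours from 0 to 11. The MedFb2b column is the highest for 28 of the 45 genes, followed by the endothelial columns.

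At 4 weeks the levels differed widely between subtypes. The study assigned the subtypes from these same counts, so these levels are a description without a test. Its top genes for MedFb2b were Oasl2, Isg15 and Iigp1, of which Oasl2 and Isg15 are members, so a high level there is partly built into the label. MedFb2b, a medullary fibroblast subtype of 89 cells at this age, held the highest level for 28 of the 45 members and was above the median of the subtypes for 44. EnC and EnA came first for 6 members each, EnVL and mesothelium for 2 each and neural crest cells for 1. In MedFb2b, Mx1, of the GTPase group, was at 51.0 CPM on average, against a median of 0.49 CPM over the other 18 subtypes. Ifit3 was at 775 CPM against 27.8, Ifit1 at 448 CPM against 21.1, Usp18 at 140 CPM against 13.4, Zbp1 at 87.4 CPM against 9.27 and Irf7 at 214 CPM against 32.8. Irf1 was not among them. It ranked 8th in MedFb2b, at 101.1 CPM against a median of 86.4 in the others, and was highest in EnC with 190.6 CPM.

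Not every member followed the MedFb2b order. Ly6e was highest in EnA (2610.5 CPM) and EnC (2311 CPM), then MedFb2b (1679 CPM), and lowest in VSM (204 CPM). Gbp2 was at 173.4 CPM in EnA, 146.2 CPM in EnC and 133.9 CPM in MedFb2b. Rsad2 was at 207 CPM in EnC and 169 CPM in MedFb2b. Bst2 was highest in EnVL with 972 CPM, Ifi27 in mesothelium with 516 CPM and Ifi27l2a in neural crest cells with 1167 CPM, which rests on 7 cells in each library.

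Member UMIs were found in nearly all MedFb2b cells. With cells thinned to 2000 UMIs, so that depth was equal, and shallower cells left out (99.2% of the 4-week cells were kept), the median MedFb2b cell at 4 weeks held 12 distinct members (quartiles 10 and 14). The median was 8 in EnA and EnC, 7 in EnVL, 6 in MedFb2a and 3 to 5 in the others. At least 5 distinct members were found in 98.9% of MedFb2b cells, 92.5% of EnA cells and 69.2% of MedFb2a cells, but in 35.2% of CapFb1a cells and 21.0% of CapFb2b cells, the lowest share of the 19 subtypes. Free RNA in the droplets also gives UMIs, and the share due to it was not measured, since no subtype is known to lack all of these genes. Without thinning, the median summed UMIs of the members were 130 in MedFb2b, 41 in EnC and 31 in CapFb1a, and the thinned values were 20, 15 and 5. MedFb2b carried fibroblast markers at 16426 CPM and macrophage, B cell and dendritic cell markers at 0.7, 0.7 and 6.9 CPM, within the ranges over the 19 subtypes of 0 to 35.9, 0 to 37.05 and 2.8 to 34.8 CPM. Its summed member level was 9005 and 7841 CPM at E16.5, 7076 and 7382 CPM at P0 and 10949.8 and 11796 CPM at 4 weeks, and 25 of its 43 members rose after birth with 1 that fell (12.1% and 10.1% of all genes).

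**Figure D4:**
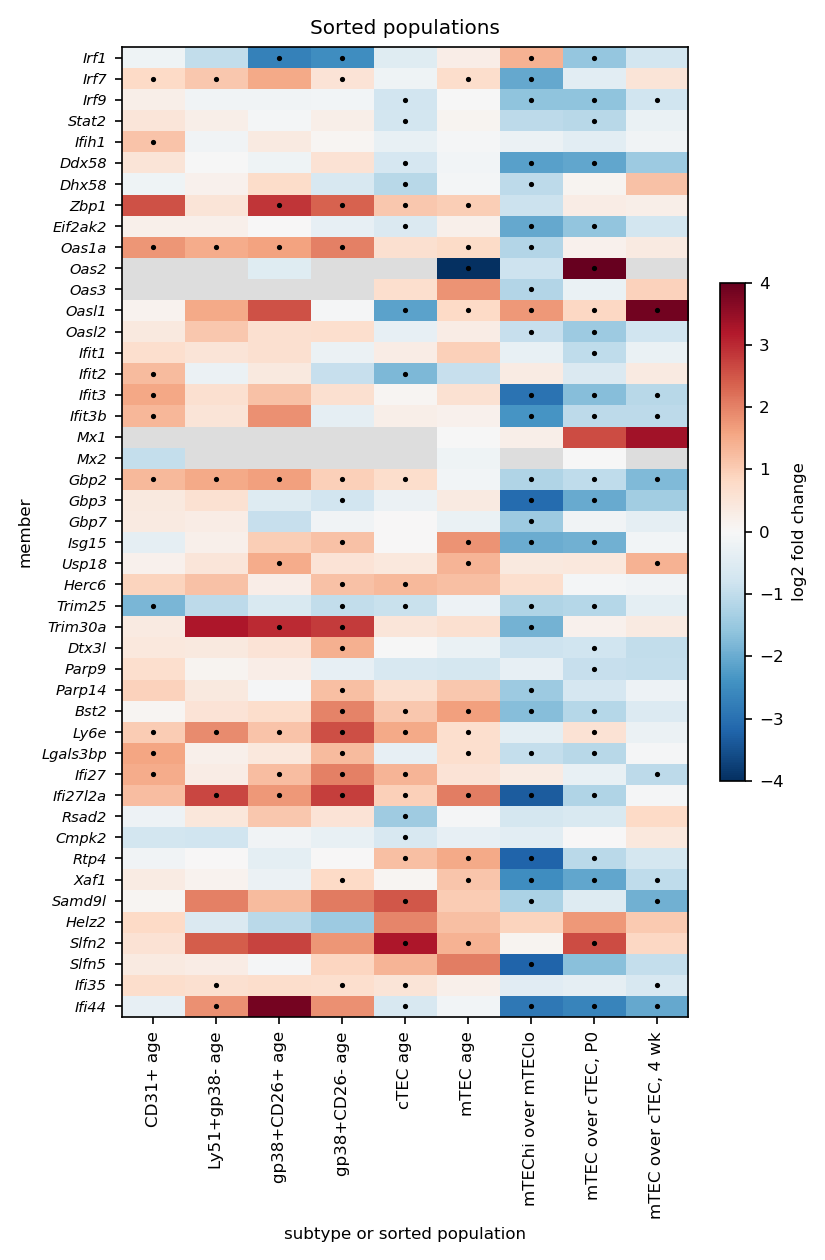
Log2 difference of each interferon-stimulated gene in the bulk comparisons, 4 weeks against P0 in 6 sorted populations and between sorted populations, as a heat map in which colours end at 4 in either direction, dots mark an adjusted p under 0.05 and grey marks genes not tested. The cTEC column holds 11 members higher and 11 lower at 4 weeks, and the mTEChi column holds 25 members lower than in mTEClo.

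The bulk libraries held the comparison of P0 with 4 weeks in sorted populations. In bulk samples fewer cells of a type and less RNA per cell cannot be told apart. Library names carried 1 of 2 prefixes, DFCK or TXCK, of unstated meaning, with 3 libraries of each in every group, and within the 3 against 3 libraries of 1 prefix the members called higher with age ran from 0 to 8 (DFCK) and from 0 to 9 (TXCK) across the 6 populations. The share of all genes called higher in these fits ran from 0.0126% to 6.19% (DFCK) and from 0.405% to 7.9% (TXCK). The defining markers were present where the labels place them, with the exception of the shallow gp38+CD26+ library named above. In all 6 populations the median summed level of the members was higher at 4 weeks than at P0, from 6721 to 10136 CPM in CD31+, 2259.8 to 3186 CPM in Ly51+gp38-, 2811 to 4084 CPM in gp38+CD26+, 3193 to 6501 CPM in gp38+CD26-, 5948 to 7088 CPM in cTECs and 3885 to 5949 CPM in mTECs. Abundant members such as Ly6e weigh most in these sums, which do not stand for the list as a whole. In cTECs the sum rose although as many members were called lower as higher. The lowest and highest libraries did not overlap between the ages in CD31+ (7597 the highest at P0, 8976 the lowest at 4 weeks), gp38+CD26- (3409 and 5777) and mTECs (3995 and 4804), and overlapped in the other populations. For gp38+CD26+ the summed member level at 4 weeks ran from 2570 to 7354 CPM, the highest being the shallow library, and from 2570 to 5840 CPM without it, against 2289 to 3301 CPM at P0, so the overlap was there in both cases.

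In CD31+ endothelium 10 of 43 members rose and 1 fell, where 3.19% and 1.91% of all genes did, with a median of 0.41 against -0.07 over all genes. Ifit3 had a lowest, median and highest value of 79.1, 136.6 and 184.6 CPM at P0 and of 256, 381 and 443 CPM at 4 weeks (1.56 ± 0.22, adjusted p = 0.000805). Lgals3bp was at 84.03, 171.5 and 212 CPM and at 389, 454 and 512 CPM (1.56 ± 0.20, adjusted p = 0.000319). Neither gene overlapped between the ages, and neither did Gbp2 (1.28 ± 0.20, adjusted p = 0.00155) or Ly6e (1.01 ± 0.20, adjusted p = 0.00788). Oas1a rose with overlap, from 14.9, 21.8 and 43.5 CPM to 36.95, 76.5 and 114 CPM (1.77 ± 0.33, adjusted p = 0.00573). The member that fell was Trim25, a ubiquitin ligase needed for RIG-I signalling, at 71.1, 86 and 155.7 CPM and at 11.8, 26.04 and 39.0 CPM (-1.83 ± 0.30, adjusted p = 0.00208). In the single-cell libraries Trim25 was not called lower in EnA, EnC or EnVL between these ages. Irf1 did not pass the test in endothelium, at 46.4, 92.6 and 136.5 CPM and at 50.9, 66.8 and 121 CPM (-0.18 ± 0.27, adjusted p = 0.83). Summed mural markers in the same libraries were at 42.2, 64.5 and 135.5 CPM at P0 and at 564, 1156 and 1762 CPM at 4 weeks, and their part in the result was not tested.

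In gp38+CD26- medullary fibroblasts 16 of 42 members rose and 3 fell (12.9% and 11.5% of all genes), with a median of 0.60 against -0.09. Ly6e was at 314, 452 and 821 CPM at P0 and at 2233, 2685 and 3022 CPM at 4 weeks (2.59 ± 0.20, adjusted p = 5.2e-07). Trim30a (2.80 ± 0.47, adjusted p = 0.000552), Ifi27l2a (2.76 ± 0.38, adjusted p = 0.000119) and Bst2 (1.98 ± 0.24, adjusted p = 3.12e-05) rose as well. Irf1 was at 91.2, 133 and 277 CPM at P0 and at 16.1, 27.4 and 31.5 CPM at 4 weeks, with no overlap (-2.49 ± 0.29, adjusted p = 2.13e-05). Isg15 rose here (1.16 ± 0.34, adjusted p = 0.0228), from 4.90, 9.88 and 20.4 CPM to 17.0, 22.5 and 26.1 CPM with overlap. Thymocyte markers in these libraries had medians of 43.9 CPM at P0 and 4.28 CPM at 4 weeks, mesothelial markers of 34.3 and 1.49 CPM and epithelial markers of 46.9 and 15.0 CPM, and their part in the result was not tested.

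In gp38+CD26+ capsular fibroblasts 8 of 43 members rose and 1 fell (3.88% and 3.41% of all genes), with a median of 0.64 against -0.08, and without the shallow library 9 rose and 1 fell (7.27% and 5.93% of all genes), with a median of 0.55. Irf1 was the member that fell, from 59.4, 121.8 and 337 CPM to 0, 22.0 and 28.3 CPM (-2.69 ± 0.46, adjusted p = 0.00223). The 0 belongs to the shallow library, and without it the 4-week values were 10.2, 25.3 and 28.3 CPM with a difference of -2.67 ± 0.47. Gbp2 rose from 57.2, 74.3 and 83.4 CPM to 129, 224 and 350 CPM (1.64 ± 0.24, adjusted p = 0.000817), with no overlap. Zbp1 (2.85 ± 0.61, adjusted p = 0.00964) and Trim30a (2.98 ± 0.82, adjusted p = 0.0391) rose with overlap, and both separated the ages once the shallow library was left out. Mesothelial markers went from 0, 49.2 and 306 CPM to 397, 2683 and 4858 CPM in these libraries and epithelial markers from a median of 3.23 to one of 113.5 CPM, and their part in the result was not tested. In Ly51+gp38- perivascular cells 7 of 42 members rose (6.44% of all genes) and 0 fell (5.45%), with 2 lower at an unadjusted p under 0.05 and 1 lower by DESeq2 (7.72% of all genes). Ly6e was at 107.4, 140 and 191.6 CPM and at 401, 455 and 609 CPM (1.88 ± 0.15, adjusted p = 3.75e-06), and Gbp2 rose by 1.51 ± 0.18 (adjusted p = 9.46e-05), both with no overlap. Thymocyte markers in the perivascular libraries were at 4.76, 15.9 and 30.7 CPM at P0 and at 96.7, 259 and 412 CPM at 4 weeks, and epithelial markers had medians of 34.6 and 178.5 CPM, dendritic cell markers of 0.23 and 24.3 CPM and endothelial markers of 1.96 and 33.2 CPM. The mural markers of the population itself went from 28268, 33527 and 38700.01 CPM to 83761, 94589.6 and 108120.2 CPM. Their part in the result was not tested.

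In cTECs the list split, with 11 of 43 members that rose and 11 that fell (12.3% and 9.99% of all genes) and a median of 0.08 against 0.00. Among the libraries of the DFCK prefix 6 rose and 1 fell (4.36% and 2.7% of all genes) with a median of 0.36. Among those of the TXCK prefix 7 rose and 8 fell (7.03% and 4.75%) with a median of -0.18. Those that rose included Slfn2, a regulator of lymphocyte quiescence, at 0.807, 6.40 and 9.31 CPM at P0 and 16.7, 55.1 and 77.4 CPM at 4 weeks (3.24 ± 0.50, adjusted p = 0.000423), Samd9l (2.48 ± 0.28, adjusted p = 3.66e-05) and Ly6e (1.51 ± 0.15, adjusted p = 1.16e-05). Summed thymocyte markers in the same libraries were at 30.5, 34.1 and 55.2 CPM at P0 and at 488, 1683 and 2330 CPM at 4 weeks. Fibroblast markers were at 12.6, 50.2 and 123 CPM and at 333, 630 and 1758 CPM, dendritic and plasmacytoid dendritic cell markers at 0.485, 2.44 and 3.71 CPM and at 29.1, 90.1 and 135.4 CPM, and mesothelial markers had medians of 0 and 312 CPM. The part of any of these in the result was not tested. Those that fell included Ifit2, at 88.2, 146.2 and 201 CPM and at 11.4, 39.0 and 62.7 CPM (-1.81 ± 0.34, adjusted p = 0.00168), Rsad2 (-1.41 ± 0.24, adjusted p = 0.00091), Oasl1 (-2.15 ± 0.68, adjusted p = 0.0361), Irf9 (-0.77, adjusted p = 0.00226) and Stat2 (-0.72, adjusted p = 0.0294). In cTECs 2 subunits of the complex that binds the response element fell while the membrane proteins Ly6e and Bst2 (1.09, adjusted p = 0.00205) rose. Isg15 overlapped between the ages (0.02, adjusted p = 0.962).

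In mTECs 13 of 46 members rose and 1 fell (3.64% and 2.35% of all genes), with a median of 0.44 against -0.06. Isg15 was at 9.33, 12.9 and 16.8 CPM at P0 and at 29.6, 40.8 and 62.9 CPM at 4 weeks, with no overlap (1.79 ± 0.29, adjusted p = 0.00181). Usp18 was at 219, 312 and 394 CPM and at 680, 772 and 957 CPM (1.36 ± 0.15, adjusted p = 0.000129), again with no overlap. Bst2 (1.64 ± 0.31, adjusted p = 0.00569) and Ifi27l2a (2.03 ± 0.45, adjusted p = 0.0155) rose without overlap. The member that fell was Oas2, at 1.497, 2.74 and 5.31 CPM and at 0, 0 and 0.617 CPM (adjusted p = 0.0353), for which no fold is given, and with no filter on low counts it did not pass. Irf1 did not pass the test (0.27, adjusted p = 0.63). Macrophage markers were at 221, 278 and 346 CPM at P0 and at 348, 482 and 618 CPM at 4 weeks, and their part in the result was not tested.

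The age difference varied among the 6 populations for 17 of the 46 members, by an interaction test over 72 libraries that called 20% of all genes. They included Irf1, which fell in both fibroblast populations, and Isg15, which rose in mTECs and in the gp38+CD26- gate. In Ly51+gp38- cells edgeR called no member lower with age, Irf1 included, whereas in the single-cell libraries Irf1 fell in VSM and pericytes. In the single-cell libraries Isg15 fell between these ages in MedFb1a, MedFb1b and MedFb2a and was called higher in no medullary subtype. Ly6e was also among them, although it rose in all 6 populations, by 0.66 in mTECs to 2.59 in gp38+CD26-.

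Between the sorted TEC populations more members were lower than higher in the medulla. At P0, 4 of 46 members were higher and 21 lower in mTECs than in cTECs, where 27.2% and 16.3% of all genes were, with a median of -0.65 against 0.13 over all genes. Ifi44 was at 156.1, 199 and 260 CPM in cTECs and at 19.3, 30.9 and 42.1 CPM in mTECs (-2.63 ± 0.22, adjusted p = 2.52e-07). The RNA sensor Ddx58 (RIG-I) was at 117, 148.7 and 166.8 CPM and at 13.7, 31.4 and 52.7 CPM (-2.09 ± 0.26, adjusted p = 1.29e-05). Irf9, at 237, 345 and 367 CPM and at 91.3, 102 and 111 CPM, was lower by a log2 difference of -1.59 ± 0.12 (adjusted p = 1.39e-07). The groups did not overlap in any of these, nor in Isg15 (-1.92 ± 0.25, adjusted p = 1.61e-05) and Irf1 (-1.55 ± 0.19, adjusted p = 1.27e-05). Slfn2 was higher in mTECs (2.62 ± 0.47, adjusted p = 0.000356). Oas2 was at 0 in all 6 cTEC libraries and at 1.497, 2.74 and 5.31 CPM in mTECs. Macrophage markers were at 1.36, 6.94 and 8.60 CPM in cTECs and at 221, 278 and 346 CPM in mTECs, and mural markers at 81.7, 129.6 and 176.5 CPM and at 2201, 2522 and 3406 CPM. Medians in cTECs and mTECs were 0 and 916 CPM for mesothelial, 50 and 384 CPM for fibroblast and 0.193 and 47.7 CPM for B cell markers. They were 2.44 and 30.3 CPM for dendritic cell, 0 and 12.4 CPM for endothelial and 6532 and 3748 CPM for epithelial markers. The part of all these lists in the result was not tested.

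At 4 weeks the difference between mTECs and cTECs was called for fewer members, 2 of 44 higher and 9 lower (15.8% and 9.38% of all genes), with a median of -0.26 against 0.01. Gbp2 was at 190.8, 222 and 256 CPM in cTECs and at 30.02, 59.8 and 111 CPM in mTECs (-1.76 ± 0.27, adjusted p = 0.000257), and Ifi44 was lower as at P0 (-2.03 ± 0.35, adjusted p = 0.000722). Oasl1, at 0, 6.49 and 15.99 CPM and at 59.7, 93.2 and 128 CPM (3.85 ± 0.75, adjusted p = 0.00181), and Usp18 (1.40 ± 0.19, adjusted p = 0.000141) were higher in mTECs. Isg15 overlapped between the populations at this age (-0.10, adjusted p = 0.856). Macrophage markers were again higher in the mTEC libraries, with medians of 482 against 18.3 CPM, and thymocyte markers in the cTEC libraries, with medians of 1683 against 36.0 CPM. Mural (2135 against 277 CPM) and B cell markers (56.4 against 12.9 CPM) were higher in mTECs too, and epithelial markers lower (4159 against 8488 CPM). The part of these lists in the result was not tested.

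Within the medulla, mTEChi cells, the mature fraction, held less of most members than mTEClo cells. Of 45 members 2 were higher and 25 lower in mTEChi, where 10.2% and 6.24% of all genes were, with a median of -1.04 against 0.10. The summed level had a lowest, median and highest value of 7270.2, 9269 and 12366 CPM in mTEClo and of 4237, 5108 and 5311 CPM in mTEChi, without overlap. Rtp4, a chaperone for receptor trafficking, was at 249.8, 397 and 729 CPM in mTEClo and at 32.4, 41.1 and 57.6 CPM in mTEChi (-3.21 ± 0.27, adjusted p = 9.91e-06). Ifit3 was at 230.5, 381 and 711 CPM and at 30.1, 48.8 and 68.0 CPM (-2.94 ± 0.28, adjusted p = 2.05e-05). Irf7 was at 186, 379 and 499.9 CPM and at 62.2, 79.8 and 81.7 CPM (-2.06 ± 0.23, adjusted p = 8.6e-05). In each of these the groups did not overlap. Isg15 was at 50.8, 94.3 and 145 CPM and at 16.6, 21.1 and 26.6 CPM (-1.99 ± 0.24, adjusted p = 0.000133), and Irf9 (-1.61 ± 0.22, adjusted p = 0.000266) and Ifi27l2a (-3.33 ± 0.31, adjusted p = 2.08e-05) were lower as well.

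The 2 members that were higher in mTEChi were Irf1 and Oasl1. Irf1 was at 18.1, 41.9 and 61.7 CPM in mTEClo and at 74.8, 94.3 and 124.8 CPM in mTEChi, with no overlap (1.40 ± 0.25, adjusted p = 0.00142), and Oasl1 at 11.1, 30.1 and 81.98 CPM and at 87.2, 112.4 and 145 CPM (1.73 ± 0.41, adjusted p = 0.0092). The mTEChi libraries carried more of the macrophage markers (573, 645 and 774 CPM against 42.8, 154 and 292 CPM) and B cell markers (48.98, 76.8 and 95.7 CPM against 4.187, 22.1 and 42.5 CPM), and of the dendritic and plasmacytoid dendritic cell markers (14.1, 29.1 and 46.6 CPM against 0, 0.682 and 4.66 CPM). They carried less of the mural markers (1687, 1961 and 2189 CPM against 2509.6, 3274 and 4277 CPM), the mesothelial markers (384, 467 and 512 CPM against 523, 727 and 942 CPM) and the epithelial markers (3249, 3727 and 3799 CPM against 5023, 5699 and 6969 CPM). The part of all these lists in the result was not tested. Among members with the promoter motif 0 of 17 tested were higher and 13 lower in mTEChi (median -1.71). Among those with a promoter entry and no match 2 of 17 were higher and 8 lower (median -0.82), where 10.2% and 6.24% of all genes were. In mTECs against cTECs at P0 these groups had 0 higher and 10 lower (median -1.04) and 2 higher and 8 lower (-0.56), where 27.2% and 16.3% were. At 4 weeks they had 0 and 3 (-0.37) and 1 and 5 (-0.39), where 15.8% and 9.38% were. The groups were not tested against each other.

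In medullary against capsular fibroblasts at 4 weeks 2 of 43 members were higher and 1 lower (5.14% and 3.93% of all genes), with a median of 0.20 against 0.04. Ly6e was at 641, 1113 and 1751 CPM in gp38+CD26+ and at 2233, 2685 and 3022 CPM in gp38+CD26- (1.38 ± 0.24, adjusted p = 0.00195), and Lgals3bp was higher too (1.35 ± 0.27, adjusted p = 0.00456), while Gbp2 was lower (-0.93 ± 0.22, adjusted p = 0.0162). Without the shallow capsular library 4 of 44 members were higher and 2 lower (6.91% and 7.13% of all genes), with Xaf1 (1.01) and Bst2 (0.82) added among the first and Samd9l among the second, while Ly6e (1.32 ± 0.18, adjusted p = 0.000252), Lgals3bp (1.22 ± 0.18, adjusted p = 0.000429) and Gbp2 (-0.98 ± 0.21, adjusted p = 0.00606) kept their calls. Mesothelial markers were at 397, 2683 and 4858 CPM in the capsular libraries and at 0, 1.49 and 37.6 CPM in the medullary ones, and their part in the result was not tested.

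**Figure D5:**
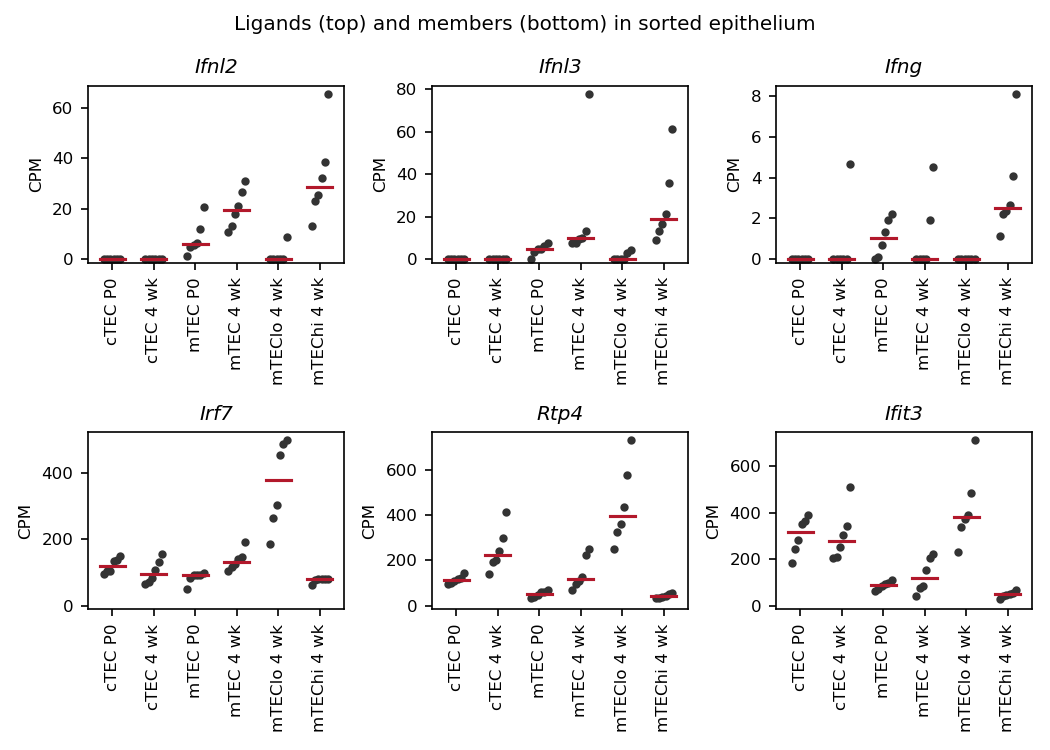
Bulk CPM of 3 interferon genes (Ifnl2, Ifnl3, Ifng, upper row) and 3 interferon-stimulated genes (Irf7, Rtp4, Ifit3, lower row) in the sorted TEC populations, each point 1 library and each red line the median of 6 libraries. Ifnl2 has a median of 28.7 CPM in mTEChi and 0 in mTEClo, whereas Rtp4 has a median of 397 CPM in mTEClo and 41.1 CPM in mTEChi.

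Most counts of the interferon genes themselves lay in mTEC and mTEChi libraries. Ifnb1 had 31 counts summed over the 6 P0 mTEC libraries, 58 over the 6 mTEC libraries at 4 weeks, 90 over the 6 mTEChi libraries and 0 in mTEClo and in every other bulk population. Ifnl2, an interferon-lambda gene, was at 1.32, 5.95 and 20.6 CPM in P0 mTECs, 10.7, 19.4 and 31.1 CPM in 4-week mTECs, 13.2, 28.7 and 65.3 CPM in mTEChi and 0, 0 and 8.64 CPM in mTEClo. It was listed at 0 in all cTEC and nonepithelial libraries, and its difference between mTECs and cTECs passed the test at both ages. Ifnl3 was at 9.04, 18.8 and 61.4 CPM in mTEChi and at 0, 0 and 4.12 CPM in mTEClo, a difference that passed the test (4.67 ± 1.43, adjusted p = 0.040). The adjusted p of Ifnl2 in the same comparison was 0.056. Ifng was at 1.13, 2.51 and 8.09 CPM in mTEChi, with counts in 6 of 6 libraries, and at 0 in every mTEClo library. The dendritic and plasmacytoid dendritic cell markers given above were higher in mTEChi as well, and NK cell markers had medians of 5.496 CPM in mTEChi and 0 in mTEClo, and their part in these counts was not tested. Ifnl2 and Ifnl3 are near copies, so their reads may not be fully separable.

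Other genes of the pathway moved with the members only in part. Over all NETS cells between P0 and 4 weeks, 7 of 11 interferon-gamma-induced GTPases rose and 1, Iigp1, fell, where 26% and 25.7% of all genes did. Among them Gbp4 rose by 2.16 ± 0.19 and Tgtp1 by 1.58 ± 0.28. Of the receptor chains Ifngr1 rose by 2.20 ± 0.06, Il10rb by 0.66 ± 0.09 and Ifnar2 by 0.61 ± 0.10, and Ifngr2 fell by 0.39 ± 0.12, while Ifnar1 did not pass the test (0.03 ± 0.08). Of 6 negative regulators 2 rose and 3 fell, against the same 26% and 25.7% of all genes, among the latter Socs1 by 1.39 ± 0.06 and Socs3 by 1.54 ± 0.09. In the bulk libraries 8 of 9 of the GTPases rose in CD31+ cells, where 3.19% of all genes did, whereas in cTECs 1 rose and 3 fell, where 12.3% and 9.99% did, and Socs3 fell with age in all 6 populations.

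The study also assigned the newborn TEC labels from the same counts. Levels in this paragraph are over 6 libraries, with Tbx1+/-Crkl+/- and wild type pooled, unless stated. Their ranges and SDs therefore mix any genotype difference with the spread between libraries. Among the TEC labels the summed level was highest in PcTEC, at a lowest, median and highest of 4996, 5529 and 6295 CPM. It was lower in MmTEC, at 1816, 2383 and 2894 CPM, with no overlap. ItTEC were at 5135 ± 752 CPM (SD, n = 6), McTEC at 4483 ± 596 CPM and PrTEC at 4307 ± 525.9 CPM, with overlapping pooled ranges. The genotypes did not overlap in PcTEC, ItTEC or PrTEC, as given below. Within each genotype ItTEC lay above PrTEC, at 4369 to 4793 against 3754 to 4135 CPM in Tbx1+/-Crkl+/-. In wild type the ranges were 5353 to 6328 against 4334 to 5092 CPM. MedFb2b again held the most, 9304 ± 834 CPM, followed by EnVL at 6367 ± 1026 CPM. Isg15 was at 404 ± 148.05 CPM in PcTEC and 84.1 ± 24.8 CPM in MmTEC, Ifit3 at 100.8 ± 21.7 CPM and 12.1 ± 8.9 CPM, and Irf1 at 1059 ± 43.1 CPM and 217 ± 59.9 CPM. Mx1 did not share this order, at 21.9 ± 8.2 CPM in PcTEC and 41.9 ± 29.3 CPM in MmTEC, values that overlapped. MmTEC cells carried macrophage markers at 491 CPM in wild-type libraries against 15.0 CPM in PcTEC, of which Lyz2 gave 384 CPM.

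The genotype comparison called no member. Crkl was at 24.1, 23.6 and 26.9 CPM in the 3 libraries labelled Tbx1+/-Crkl+/- and at 23.0, 25.1 and 18.4 CPM in the 3 wild-type libraries, and Tbx1 had at most 19 UMIs in any library, so neither gene checks the labels here, and whether the counted ends lie in the deleted parts was not examined. Over 18 labels with at least 20 cells in each library, 0 of 487 tests of a member passed in edgeR, where 0.0352% of all tests were higher and 0.0129% lower. At an unadjusted p under 0.05 there were 16 higher and 17 lower of the 487, and the share of all tests at that threshold was not counted. DESeq2 called 0, with 6 and 8 unadjusted, where it called 0.0172% of all tests higher and 0.024% lower. Medians over the members ran from -0.25 in ItTEC to 0.29 in VSM. In PcTEC, Isg15 was at 312, 368 and 231 CPM in the Tbx1+/-Crkl+/- libraries and at 427, 419 and 667 CPM in the wild-type libraries (-0.79 ± 0.30, adjusted p = 0.643), and the summed level at 4996, 5362 and 5373 CPM and at 5886, 5685 and 6295 CPM. Both measures separated the genotypes in PcTEC, but the fit over all genes did not call Isg15. The summed level separated them in the same direction in ItTEC, at 4432, 4369 and 4793 CPM and at 6328, 5353 and 5536 CPM, and in PrTEC, at 3803, 4135 and 3754 CPM and at 4727, 4334 and 5092 CPM, and overlapped in the other 15 labels. How often sums of other genes separate 3 libraries from 3 was not examined, so these separations are a description without a test. Median depth per cell was 2391 to 2551 UMIs in the Tbx1+/-Crkl+/- libraries and 2577 to 4686 in the wild-type libraries, and its part was not tested. In pericytes the summed level was 3027, 3139 and 3098 CPM and 3199, 3011 and 3091 CPM, which overlapped.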

How the data were processed

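Values deposited by the authors were counts per gene. The submitters' processing notes name Cell Ranger 3.1.0, STAR 2.5.3a, HTSeq, mm10 and GRCh38 without roles, and per the study's methods single cells were kept as singlets with over 1000 genes and under 5% mitochondrial counts, but the deposited newborn cells went down to 876 genes. Cell labels are the authors' own. Whether bulk counting used strand is not given in the sources used here, and Dtx3l and Parp9 overlap on opposite strands. Entries that name no gene held 7.81% to 29.4% of bulk counts and were left out, and 37607 of 39179 bulk identifiers matched a symbol. Gene positions are those of GENCODE vM21.

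UMIs were summed per label and library, for labels with at least 20 cells in each library of a comparison, and bulk libraries entered as deposited. Levels are CPM of the summed counts, from libraries with at least 5 cells, except where a smaller cell number is stated. Counts were tested with edgeR 4.0.16 in R 4.3.3 (filterByExpr, TMM, quasi-likelihood test, Benjamini-Hochberg adjustment over all genes tested, threshold 0.05), with DESeq2 1.42.0 as an alternative. The single-cell age fit held the E16.5, P0 and 4-week libraries. Other alternatives were RLE scaling, no filter, at least 50 cells, a replicate block, each single-cell library left out and each sample name prefix alone.

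The members were listed by gene name, and both they and the other lists were chosen with earlier results of these data known. The text names members from a fixed list of 26 and called members with large changes, and a gene outside these was named after its values were seen. It does not name the 3 largest called changes of every test. Among those left out were Usp18 in CapFb4 (2.99) and Oas2 in EnC (4.36), both higher at 4 weeks than at P0. Per the study the newborn libraries came from 3 mice of each genotype and the E16.5, P0 and 4-week NETS from 2 thymi per age. The sources used here name no separate animals for the bulk libraries, whose p-values measure the spread between libraries, which may be technical.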

Additional observations from a re-analysis of the deposited data

Results flagged for a closer look

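For 17 members the age difference between P0 and 4 weeks was not the same in the 6 bulk populations, by an interaction test that called 20% of all genes. The adjusted p was 4.24e-07 for Irf1, 6.41e-07 for Ly6e, 8.03e-07 for Lgals3bp, 5.61e-05 for Oas2, 6.57e-05 for Gbp2 and 6.62e-05 for Rtp4. It was 0.000633 for Isg15, 0.000911 for Ifi44, 0.00209 for Bst2 and 0.00243 for Ifit2. It was 0.0117 for Ifi27, 0.0152 for Usp18, 0.0152 for Xaf1, 0.0192 for Irf7, 0.0243 for Ifit3b, 0.0265 for Trim30a and 0.032 for Mx1. Without the shallow 4-week gp38+CD26+ library 18 members passed, where 4103 of 19415 genes did.

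The summed member level stood apart in 1 library of 2 groups among the 44 groups of 4 to 10 libraries examined, where chance gives about 1 in 20. Replicate 1 of mTEChi was the lowest of its group at 4237 CPM. In newborn MedFb2b cells, replicate 1 of Tbx1+/-Crkl+/- was the highest at 10892 CPM, from 5 cells, against 18 to 35 cells in the other libraries.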

How the results depend on the processing

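No named gene reversed under the alternatives run, but the member median in cTECs, 0.08, was -0.18 in the TXCK libraries alone. Called members of the age comparison within subtypes stayed within 1.5 times of 364 higher and 36 lower under every alternative run. They were 263 and 26 by DESeq2 (9.88% and 9.53% of all pairs) and 285 and 33 with at least 50 cells (17.1% and 16.8%). Without each library in turn 260 to 342 were higher (9.9% to 13.7% of all pairs) and 27 to 36 lower (9.51% to 13.9%). Over all NETS cells 31 to 41 rose and 1 fell without each library, and 31 to 40 and 1 without MedFb2b. Shares of all genes called in these fits are not given here. From E16.5 to P0 the counts moved more, to 67 higher and 17 lower by DESeq2 (4.2% and 3.39% of all pairs) and 12 lower with at least 50 cells (7.63%). Without each library 45 to 129 were higher (2.57% to 7.47% of all pairs) and 6 to 33 lower (1.97% to 6.84%). Calls for genotype were 0 in each case.

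In the bulk age comparisons DESeq2 called 1 member lower in Ly51+gp38- (7.72% of all genes), 2 lower in gp38+CD26+ (7.68%) and 5 lower in gp38+CD26- (14.2%). In gp38+CD26- against gp38+CD26+ at 4 weeks it called 3 higher and 4 lower (6.53% and 6.35%), where edgeR called 2 and 1 (5.14% and 3.93%). Without replicate 2 of gp38+CD26+ that comparison had 4 higher and 2 lower by edgeR (6.91% and 7.13%). With no filter 0 members fell in mTECs (1.32% of all genes). With 3 against 3 libraries of the DFCK prefix the members called higher and lower were 1 and 0 in CD31+, 2 and 0 in Ly51+gp38-, 0 and 0 in gp38+CD26+, 8 and 2 in gp38+CD26-, 6 and 1 in cTECs and 0 and 0 in mTECs. In that order the shares of all genes were 0.541% and 0.203%, 1.27% and 1.21%, and 0.0259% and 0%. For the last 3 populations they were 6.19% and 3.3%, 4.36% and 2.7%, and 0.0126% and 0.0063%. With the TXCK prefix the members called were 0 and 0, 2 and 0, 9 and 1, 9 and 1, 7 and 8, and 6 and 0. The shares of all genes were 0.405% and 0.114%, 3.4% and 2.79%, 7.8% and 5.35%, 7.9% and 5.23%, 7.03% and 4.75%, and 2.4% and 2%. Fewer libraries entered these fits, and the 4-week gp38+CD26+ group entered the DFCK fit with the shallow library as 1 of its 3. Among single genes named, 42 of 57 calls were lost with the DFCK libraries alone and 27 of 57 with the TXCK libraries alone. In the single-cell fits 68 of 105 were lost without E16.5 replicate 1, 60 of 105 without E16.5 replicate 2 and 79 of 380 by DESeq2. Without P0 replicates 1 and 2 in turn 53 and 50 were lost, with 327 and 330 kept. Without 4-week replicates 1 and 2 in turn 66 and 65 were lost, with 208 and 210 kept.

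Deviations of the libraries were not correlated by replicate number, which is not known to mark the same animals or batch across ages or genotypes. The replicate block rests on the same number. In the single-cell data a fit with the replicate block gave 358 higher and 35 lower pairs between P0 and 4 weeks (15% and 14.6% of all pairs). For genotype it gave 0 (0.0729% and 0.0309%). No replicate block was fitted in bulk. The numbers in the bulk sample names are spaced alike in each population of an age. Libraries of different populations may therefore share thymi, and the bulk tests treated them as independent. Without thinning the median summed UMIs per cell were 130 in MedFb2b, 41 in EnC and 31 in CapFb1a.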

Other observations

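MedFb2b cells were scarce before E16.5. The E12.5 library held 0 and the E13.5 library 3, and the 35035 UMIs of those 3 cells gave a summed member level of 7107 CPM, with Isg15 at 1541 CPM and Ifit3 at 57.1 CPM. The summed level was 9005 and 7841 CPM in the 86 and 100 cells at E16.5. Members such as Isg15 are among the top genes of this label, so a high level in cells so labelled is no separate evidence of the subtype at E13.5.

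In the age comparison of all NETS cells, members with and without the promoter motif were counted apart. Where 26% of all genes rose between P0 and 4 weeks and 25.7% fell, among members with a match 12 of 16 tested rose and 0 fell, with a median of 0.80, and among those without a match 14 of 17 rose and 1 fell, also with a median of 0.80.

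Libraries whose names carry the TXCK prefix and those with the DFCK prefix were 3 each in every bulk group. No gene passed the test between the prefixes in any of the 14 groups by edgeR, but in mTEClo 13 of 45 members had an unadjusted p under 0.05. The share of all genes at that unadjusted threshold was not counted. The median TXCK to DFCK difference of the members in mTEClo was -0.53 against 0.01 over all genes, and in 4-week gp38+CD26+ it was 0.66 against 0.13. The shallow library is 1 of the 3 DFCK libraries of that gp38+CD26+ group, and the difference was not computed without it.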
